A study of Mus musculus with 12 samples.

Results

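The genes described here encode the nuclear subunits of respiratory complexes II to V and cytochrome c, measured in B lymphocytes from mouse spleen. Members were taken by symbol: Sdha to Sdhd, all symbols starting with Uqcr or Atp5, the Cox4 to Cox8 families, Cyc1 and Cycs. The rule found 49 of 24982 symbols: 4 of complex II, 9 of complex III, cytochrome c, 18 of complex IV and 17 of complex V. It also takes Cox7a2l, a supercomplex assembly factor, and Atp5s (now Dmac2l), which are not subunits of the mature complexes. Subunits encoded by mitochondrial DNA were not analysed here. Of the 49 members 45 reached the level needed for a test. Cox7b2, Cox8b and Cox8c were listed at 0 in all 12 libraries, and Cox4i2 stayed at or below 1.59.

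Complex II (succinate dehydrogenase) passes electrons from succinate to ubiquinone, and complex III passes them from ubiquinol to cytochrome c. Complex IV (cytochrome c oxidase) hands them to oxygen, complexes III and IV pump protons, and complex V (ATP synthase) uses the proton gradient to make ATP. Myc is a transcription factor whose targets include many genes of mitochondrial biogenesis, and activated B cells enlarge their mitochondria.

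Polyadenylated RNA came from 3 groups of 4 libraries, all at 6 weeks of age: WT (C57BL/J6), Eμ-Myc, and Eμ-Myc; PRPS2 KO, called the knockout group below. The Eμ-Myc transgene, which both Myc groups carry, places Myc under the immunoglobulin heavy-chain enhancer and so acts in the B lineage. PRPS2 belongs to the synthetases of phosphoribosyl pyrophosphate, from which nucleotides are built. The study asked which programmes Myc changes in B cells and whether loss of PRPS2 alters them. The strain of the Myc mice, the kind of PRPS2 allele, sex, litter and tumour state are not given in the sources used here. The labels call the libraries biological replicates without saying more, so p-values measure the spread between these libraries.

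Values are scaled coverage: the mean number of reads over a gene's bases, as deposited, divided by a factor per library. Being per base, they can be set side by side between genes, and their depth in reads is unknown. The coverage summed over genes ran from 1277305.5 to 1885768.9 per library. Prps2, the targeted gene, had group means of 129 ± 17.8 (WT), 243 ± 32.4 (Eμ-Myc) and 16.9 ± 1.44 (knockout), and Myc, the gene of the transgene, had 280.2 ± 52.4, 1886 ± 274 and 2209 ± 949 (SD over 4 libraries each). The 6 B-cell markers were above 0 in all libraries, with sums of 5920 to 11300. The 6 myeloid markers summed to 1160 to 25600, above the B-cell sum in some libraries and below it in others. The share of B cells in a library is not known from these sums. The knockout libraries stood apart in pairs: the scaled median absolute deviation of log2 ratios, over 3646 genes at 50 or more in every library, was 0.164 between libraries 1 and 2, 0.0864 between 3 and 4, and 0.521 to 0.674 across these pairs. In Eμ-Myc it was 0.0907 between libraries 3 and 4, against 0.211 to 0.395 for the other pairs. Whether libraries 3 and 4 of each Myc group come from separate mice is not given in the sources used here, and if they do not, the n of 4 behind each SD and p in these groups is too high. With libraries 3 and 4 averaged, 38 members were called in Eμ-Myc against WT, where 39 were called with all libraries. Of all genes 47.4% and 56.2% were called in these 2 fits. In the knockout group against WT 0 members were called with the averaging and 19 with all libraries, where 6% and 31.4% of all genes were called.

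The summed coverage of these complexes was higher in the Eμ-Myc libraries than in the WT libraries. The 49 members summed to a scaled coverage of 16800, 17270, 15390 and 16030 in WT libraries 1 to 4. In Eμ-Myc libraries 1 to 4 the sum was 23010, 34430, 27920 and 29390, so that every Eμ-Myc library lay above every WT library. Members took 1.09% to 1.21% of all coverage in WT and 1.56% to 1.98% in Eμ-Myc.

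Of the 45 tested members 39 rose in Eμ-Myc against WT and 0 fell (limma, Benjamini-Hochberg adjusted p under 0.05 over 12700 genes). Of all genes tested 56.2% were called, 28.3% as higher and 27.9% as lower. All 39 had every Eμ-Myc library above every WT library, as did 26.8% of all genes. The median log2 fold change was 0.85 over the members and -0.07 over all genes. The 6 that did not pass were Uqcrh, Cox6a2, Cox6b2, Cox7a2l, Atp5l and Atp5s.

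Beside this difference other cells' markers differed as well. The sum of 7 T-cell markers was 419 to 2410 in WT and 84.1 to 123 in Eμ-Myc, and 5 NK-cell markers summed to 266 to 1220 and 68.7 to 209. Myeloid markers overlapped, at 7950 to 25600 against 5420 to 16700. Top2a, a topoisomerase of dividing cells, averaged 41.1 in WT and 344 in Eμ-Myc. The part of cell makeup and of division in the members' rise was not tested, and in bulk RNA fewer cells of a type and less RNA per cell cannot be told apart.

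**Figure D1:**
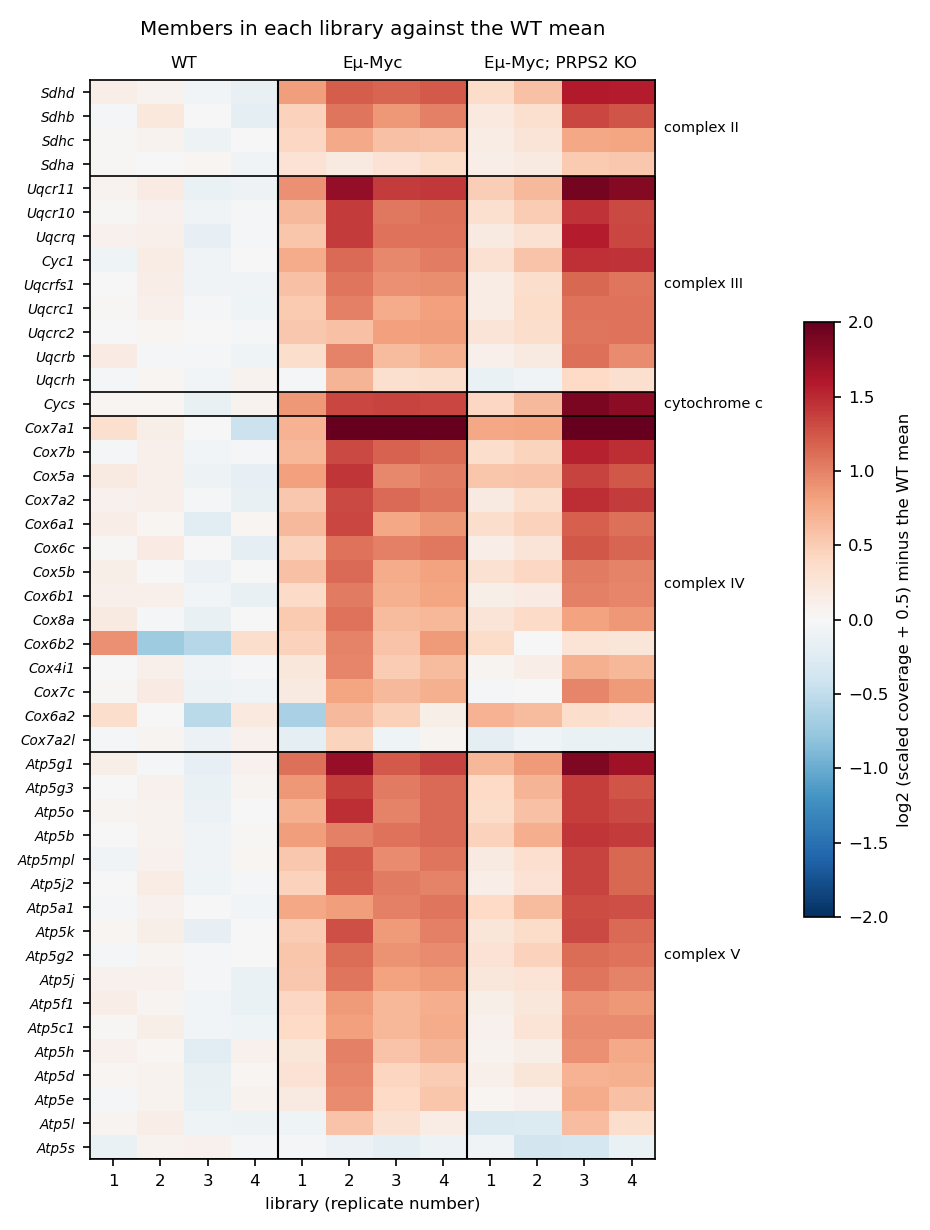
Each row is a tested member and each column a library, and colour gives log2(scaled coverage + 0.5) minus the WT mean on a scale from -2 to 2, with larger values drawn at the end colour. Nearly all rows are red in Eμ-Myc libraries and in knockout libraries 3 and 4, while knockout libraries 1 and 2 are paler.

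In complex II all 4 subunits rose, by unequal amounts, where 28.3% of all genes were called higher. Sdha, the flavoprotein that oxidizes succinate, had a scaled coverage of 197, 195, 199.6 and 184 in WT libraries 1 to 4 and 235, 219, 237 and 249.8 in Eμ-Myc. Its groups did not overlap, but its log2 change of 0.28 (SE 0.08, limma adjusted p 0.0165) was the smallest among called members. The call of Sdha was lost without Eμ-Myc library 3 or 4, with Eμ-Myc libraries 3 and 4 averaged, with all 12 libraries in a single fit and under total coverage scaling, and its adjusted p over all alternatives ran from 0.00153 to 0.203.

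Sdhb, the iron-sulfur subunit, held 358, 422, 365 and 315 in WT and 499, 760.4, 666 and 729.6 in Eμ-Myc. It rose by 0.85 on the log2 scale (SE 0.15, limma adjusted p 0.00129). Sdhc and Sdhd anchor the complex in the membrane. Sdhd held 158, 150.4, 138 and 130.1 in WT against 257, 331, 324 and 335 in Eμ-Myc, the largest change of the complex at 1.11 (SE 0.11, limma adjusted p 6.51e-05), and Sdhc rose by 0.58. The Sdhd to Sdha ratio of scaled coverage was 0.691 to 0.802 in WT and 1.09 to 1.52 in Eμ-Myc. This pair has the largest and the smallest change of the complex in these same libraries. Its separation thus follows from the choice of genes and is no further result.

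In complex III 8 of 9 subunits rose, where 28.3% of all genes were called higher. Cyc1, the heme protein that reduces cytochrome c, held 114, 134, 115 and 119.8 in WT and 201, 266, 236 and 246 in Eμ-Myc. Its log2 fold change was 0.97 (SE 0.11, limma adjusted p 9.83e-05). Uqcrc1, a core protein, held 215, 226, 205 and 198 in WT and 305, 424, 355 and 375 in Eμ-Myc, a rise of 0.78. Uqcrfs1, the Rieske iron-sulfur protein, held 165, 179, 156 and 157 in WT and 246, 346, 310.1 and 312 in Eμ-Myc, a rise of 0.88. These 2 genes and Cyc1 showed no overlap between groups, and with the core protein Uqcrc2 they had a median change of 0.83.

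The small subunits of complex III spread further. Uqcr11 had the largest change of the complex: 145, 154, 125 and 128 in WT, 259, 468, 362 and 367 in Eμ-Myc, a log2 change of 1.37 (SE 0.17, limma adjusted p 0.000176). Uqcrh, the hinge protein that meets cytochrome c, had the smallest: 583, 615, 577 and 633 in WT, 595, 962, 748 and 771 in Eμ-Myc. Eμ-Myc library 1 fell inside the WT range of Uqcrh, and its log2 change of 0.33 (SE 0.14) did not pass (limma adjusted p 0.0663). The alternatives for Uqcrh gave adjusted p from 0.00837 to 0.134. The Uqcr11 to Uqcrh ratio was 0.201 to 0.25 in WT and 0.436 to 0.486 in Eμ-Myc. As these genes have the largest and the smallest change here, the separation of their ratio follows from the choice.

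Cycs, cytochrome c itself, carries electrons from complex III to complex IV and is the form of body cells. It held 19.8, 19.9, 17.3 and 20.3 in WT and 35.5, 49.3, 50 and 49.4 in Eμ-Myc. The log2 change of 1.22 (SE 0.13, limma adjusted p 9.07e-05) exceeded those of all but 3 tested members. Its level was below that of every tested subunit other than Cox7a1 and Cox6a2. The coding sequence of Cycs shares at least 100 bases at 95% identity or more with 4 other annotated genes, 3 of them pseudogenes, so reads may have been split.

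In complex IV 11 of 14 tested members rose, with a median of 0.77, where 28.3% of all genes were called higher. Cox4i1, the general form of subunit 4, held 1385, 1474, 1303 and 1336 in WT, among the highest levels of the set, and 1614, 2706, 1958 and 2138 in Eμ-Myc. Cox4i1 rose by 0.59 (SE 0.15, limma adjusted p 0.00823). Cox5a, a subunit on the matrix side, held 312, 296, 257 and 248 in WT and 489.7, 748, 541 and 571 in Eμ-Myc, a rise of 1.07 (SE 0.14, limma adjusted p 0.000294). Neither gene overlapped between the groups. Cox7b and Cox7a2 also rose by over 1 (1.08 and 1.02), and Cox7c by 0.58.

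Cox7a2l, the supercomplex factor, had the smallest change in complex IV. It held 770.1, 812, 717 and 834 in WT and 686, 1070, 735 and 814 in Eμ-Myc, so Eμ-Myc library 2 lay above and library 1 below the WT range and the others inside it. Its log2 change of 0.06 (SE 0.14, limma adjusted p 0.740) became -0.06 under total coverage scaling, -0.07 without Eμ-Myc library 2 and -0.01 with library quality weights.

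**Figure D2:**
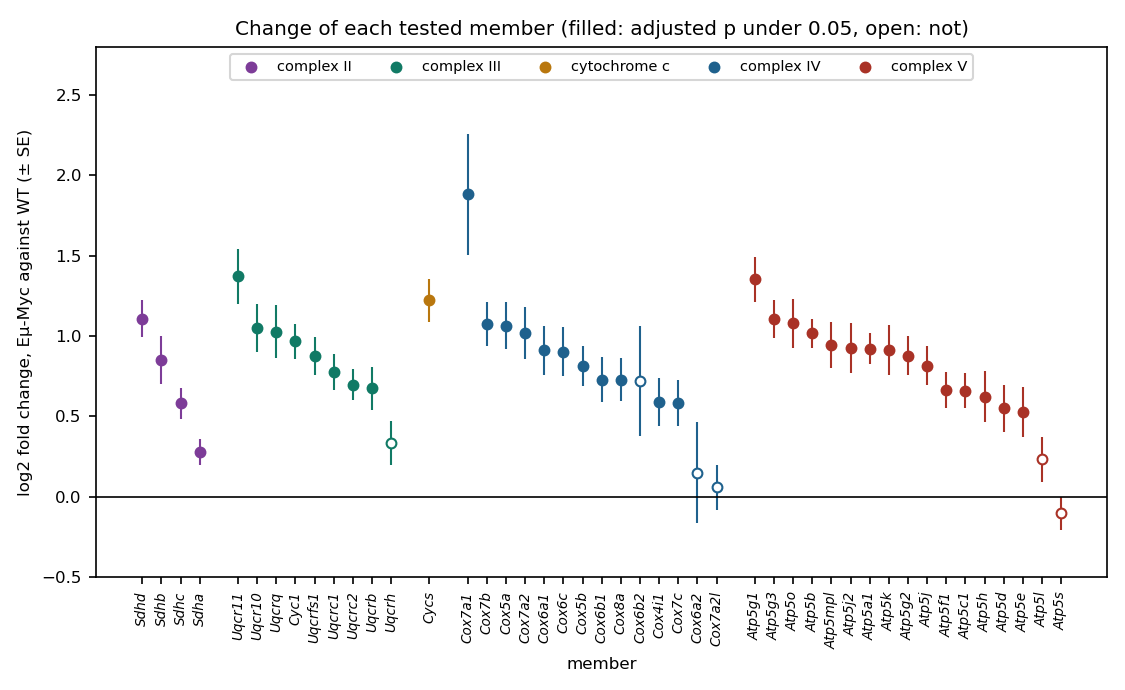
Log2 fold change of each tested member in Eμ-Myc against WT, with bars of 1 standard error, grouped and coloured by complex, filled where the adjusted p was under 0.05. Of the 45 points 39 are filled and all of these are above 0, and Cox7a2l and Atp5s lie nearest 0 in complexes IV and V together with Cox6a2.

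In complex V 15 of 17 members rose, with a median of 0.88, where 28.3% of all genes were called higher. Atp5a1 and Atp5b form the catalytic head. Atp5a1 held 508, 556, 528 and 508 in WT and 899, 938, 1052 and 1101 in Eμ-Myc, a rise of 0.92 (SE 0.09, limma adjusted p 6.34e-05). Atp5b held 705, 744, 679.5 and 722 in WT and 1277, 1438, 1505 and 1564 in Eμ-Myc, a rise of 1.02 (SE 0.09, limma adjusted p 3.23e-05). The ratio of Atp5b to Atp5a1 was 1.29 to 1.42 in WT and 1.42 to 1.53 in Eμ-Myc.

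The parts of the enzyme differed in their median change, each over few genes. The median log2 fold change was 0.97 for the head, 0.55 for the central stalk that turns inside it (Atp5c1, Atp5d and Atp5e) and 0.74 for the peripheral stalk that holds it (Atp5f1, Atp5h, Atp5j and Atp5o). It was 1.11 for the c ring, which the proton flow turns, and 0.92 for the small membrane subunits. Single genes ranged from 0.92 to 1.02 in the head, 0.52 to 0.66 in the central stalk and 0.62 to 1.08 in the peripheral stalk. In the c ring they ranged from 0.88 to 1.35 and among the small membrane subunits from 0.23 to 0.95. Most of these ranges overlap, and differences between parts were not tested. Atp5l, membrane subunit g, held 69.3, 73.5, 62.5 and 62 in WT and 62.8, 99.1, 82.3 and 73.7 in Eμ-Myc, which overlap, and its 0.23 did not pass (limma adjusted p 0.186). Its coding sequence has 9 near copies in the annotation, the most of any member.

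The c subunit is made from Atp5g1, Atp5g2 and Atp5g3, which encode the same mature protein behind different import sequences. Atp5g1 held 198, 179, 163 and 195 in WT and 393, 611, 431 and 466 in Eμ-Myc, the largest change of the complex at 1.35 (SE 0.14, limma adjusted p 7.27e-05). Atp5g2, the least abundant, held 106, 113, 105 and 109 in WT and 158, 235, 203 and 208 in Eμ-Myc, a rise of 0.88. Atp5g3, the most abundant, held 1219, 1286, 1106 and 1267 in WT and 2232, 3174, 2494 and 2672 in Eμ-Myc, a rise of 1.11. No Eμ-Myc library reached down to a WT library in any of these.

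Atp5s, which is no subunit, was the only tested member with a negative change: 20, 23, 23.3 and 21.6 in WT and 21.6, 20.1, 19.4 and 20.5 in Eμ-Myc. The groups overlapped, and its -0.10 (SE 0.10) did not pass (limma adjusted p 0.409). With library quality weights the change of Atp5s was -0.19 and passed at a limma adjusted p of 0.0499, and under total coverage scaling it was -0.22 and did not pass (limma adjusted p 0.188).

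**Figure D3:**
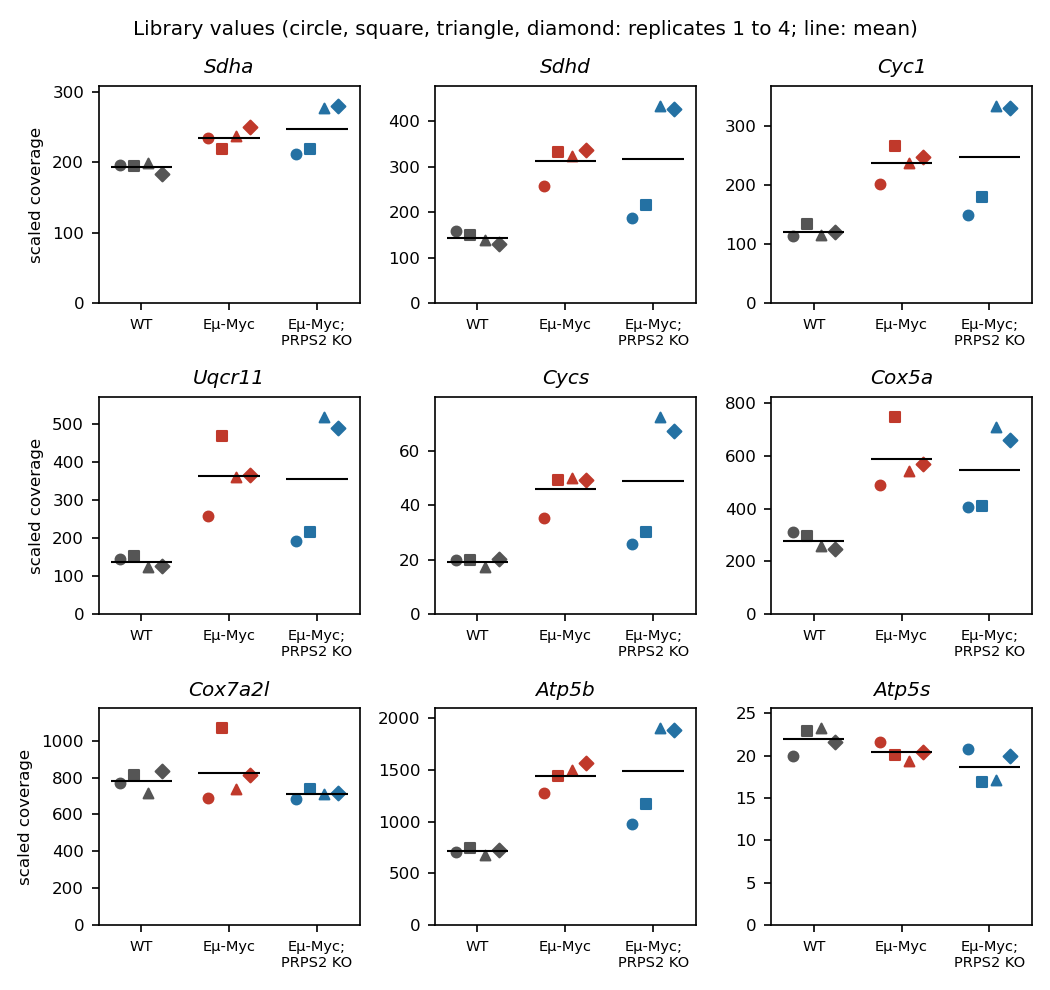
Scaled coverage of 9 members in each library on axes from 0, with marker shapes for replicates 1 to 4 and a line at each group's mean. Sdhd, Cyc1, Uqcr11, Cycs, Cox5a and Atp5b rise in every Eμ-Myc library and split the knockout libraries into 1 and 2 (lower) and 3 and 4 (higher), while Cox7a2l and Atp5s do neither.

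Within the Eμ-Myc group the members moved together. Library 1 was lowest of the 4 in 43 of 45 tested members (95.6%, against 27.0% of all genes tested), and library 2 was highest in 38 (84.4%, against 41.2%). Myc did not follow that order, with 1793, 1582, 2235 and 1934 in libraries 1 to 4. Myeloid markers summed to 9530, 16700, 6180 and 5420 in the same libraries, and the part of those cells was not tested. Each library's omission left 38 to 40 members called against WT, where 46.9% to 56.2% of all genes were called.

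Promoters of the members were searched for motifs as a description only, and the part of any motif in the members' levels was not tested. Windows from 250 bases before to 50 after the start were found for 37 of 49 members in RefSeq (GRCm38.p6). On both strands, the core of the NRF1 motif, GCATGCG, was in 9 of the 35 windows of tested members (25.7%, against 7.37% of the windows of all tested genes). NRF1 is a factor known to bind promoters of respiratory genes. The ETS and GABP motif CCGGAAG was in 12 (34.3%, against 20.6%), and the YY1 motif AAGATGG in 4 (11.4%, against 8.6%). The E-box CACGTG, the motif bound by Myc with Max, was in 4 (11.4%, against 11.9%). These are descriptions of letters in the window. The 170 bases before the start of Cycs, Sdhb, Cox6a1, Atp5g1 and, without any match, Sdha are printed 5′ to 3′ on the gene's strand with matches in capitals. They lie on mm10 at chr6:50566570-50566739 (minus), chr4:140961101-140961270 (plus), chr5:115348959-115349128 (minus), chr11:96075632-96075801 (minus) and chr13:74350241-74350410 (minus).
Cycs: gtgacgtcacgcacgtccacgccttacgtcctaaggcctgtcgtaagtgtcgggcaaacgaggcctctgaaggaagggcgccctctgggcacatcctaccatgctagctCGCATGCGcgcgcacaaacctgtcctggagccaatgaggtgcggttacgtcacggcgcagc
Sdhb: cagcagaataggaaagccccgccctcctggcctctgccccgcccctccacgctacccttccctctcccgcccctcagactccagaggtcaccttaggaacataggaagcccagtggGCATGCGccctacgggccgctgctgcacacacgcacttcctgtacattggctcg
Cox6a1: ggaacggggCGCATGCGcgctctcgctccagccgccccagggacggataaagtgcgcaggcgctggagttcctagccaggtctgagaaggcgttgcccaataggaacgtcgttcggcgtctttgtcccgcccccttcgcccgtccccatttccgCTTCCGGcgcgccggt
Atp5g1: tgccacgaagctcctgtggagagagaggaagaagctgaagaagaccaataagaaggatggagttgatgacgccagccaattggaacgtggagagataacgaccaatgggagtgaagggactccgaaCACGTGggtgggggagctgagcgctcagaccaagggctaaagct
Sdha: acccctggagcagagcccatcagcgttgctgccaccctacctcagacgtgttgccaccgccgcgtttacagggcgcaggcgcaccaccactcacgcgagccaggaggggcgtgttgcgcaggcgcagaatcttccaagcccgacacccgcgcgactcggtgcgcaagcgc

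The capitals mark the NRF1 core in Cycs, Sdhb and Cox6a1, where Cycs and Cox6a1 hold it in overlapping matches on both strands, the ETS motif in reverse in Cox6a1, and the E-box in Atp5g1. The 9 members with the NRF1 core were Atp5g2, Atp5j, Atp5k, Atp5l, Cox6a1, Cycs, Sdhb, Uqcr11 and Uqcrc1. Their changes in Eμ-Myc spanned 0.23 for Atp5l to 1.37 for Uqcr11. Atp5f1, Atp5g1, Atp5g3 and Atp5l held the E-box, with changes from 0.23 to 1.35. Sdha, with no match in its window, had the smallest change among called members, while Cox5a and Atp5b also had no match and rose by 1.07 and 1.02.

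Several complex IV subunits have paralogs of muscle, heart, lung or testis. Cox7a1, the form of heart and skeletal muscle, had the largest change of all members from a low level: 2.24, 1.88, 1.69 and 1.14 in WT and 3.07, 11.6, 9.27 and 9.69 in Eμ-Myc. Its log2 fold change was 1.88 (SE 0.38, limma adjusted p 0.0026), on a scale with 0.5 added. Cox6a2, of the same tissues, held 4.98, 3.76, 2.48 and 4.44 in WT and 2.23, 6.28, 5.49 and 4.18 in Eμ-Myc, and the groups overlapped. Its change of 0.15 (SE 0.32, limma adjusted p 0.705) turned to -0.02 without Eμ-Myc library 2 and -0.03 without WT library 3.

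Cox6b2, the testis form, reached higher levels: 82.6, 26.3, 29.3 and 55.9 in WT and 60.1, 86.8, 64.9 and 78.8 in Eμ-Myc. The WT libraries were further apart for Cox6b2 than for any other tested member (SD 0.774 on the log2 scale), and the change of 0.72 did not pass (limma adjusted p 0.1). Cox6b2 was called higher without WT library 1, at 1.02, and with library quality weights, at 1.06 (limma adjusted p 0.00328), and its adjusted p over all alternatives reached 0.234. A list of 6 muscle and testis markers summed to 0.581 to 1.13 in WT and 1.99 to 3.51 in Eμ-Myc, without overlap, and to 0.844 to 2.78 in the knockout group. Myh1 and Tnp1 were at 0 in all libraries. The part of such cells in the values of Cox7a1, Cox6a2 and Cox6b2 was not tested.

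The shares of paralogs within families were compared, and 0 of 24 comparisons passed. Cox7a2, the general form, made up 19.0% ± 1.69 of the coverage of Cox7a1, Cox7a2 and Cox7a2l in WT and 31.2% ± 3.14 in Eμ-Myc, and Cox7a2l 80.8% ± 1.74 and 68.1% ± 3.33 (SD over 4 libraries each). The share of Atp5g1 in the c subunit coverage was 12.2% ± 0.698 and 14.3% ± 0.646, that of Atp5g2 7.17% ± 0.342 and 6.06% ± 0.356, and that of Atp5g3 80.7% ± 0.601 and 79.7% ± 0.525. The annotation holds 1 near copy of Atp5g1, 2 of Atp5g2 and 0 of Atp5g3, so reads may have been split unevenly within this family. Cox7a1 made up 0.180% ± 0.0489 and 0.671% ± 0.234 of its family. The groups of all these shares but that of Atp5g3 did not overlap. Their exact two-sided permutation p was 0.0286, the smallest that 4 against 4 libraries allow, and the adjusted p over 24 share comparisons was 0.0686, which does not pass. With that smallest p, passing would need most of the 24 comparisons to reach it, so not passing does not show that shares are equal. In the knockout group the Cox7a2 share was 23.2% to 41.6% and the Atp5g1 share 13.6% to 16.4%.

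**Figure D4:**
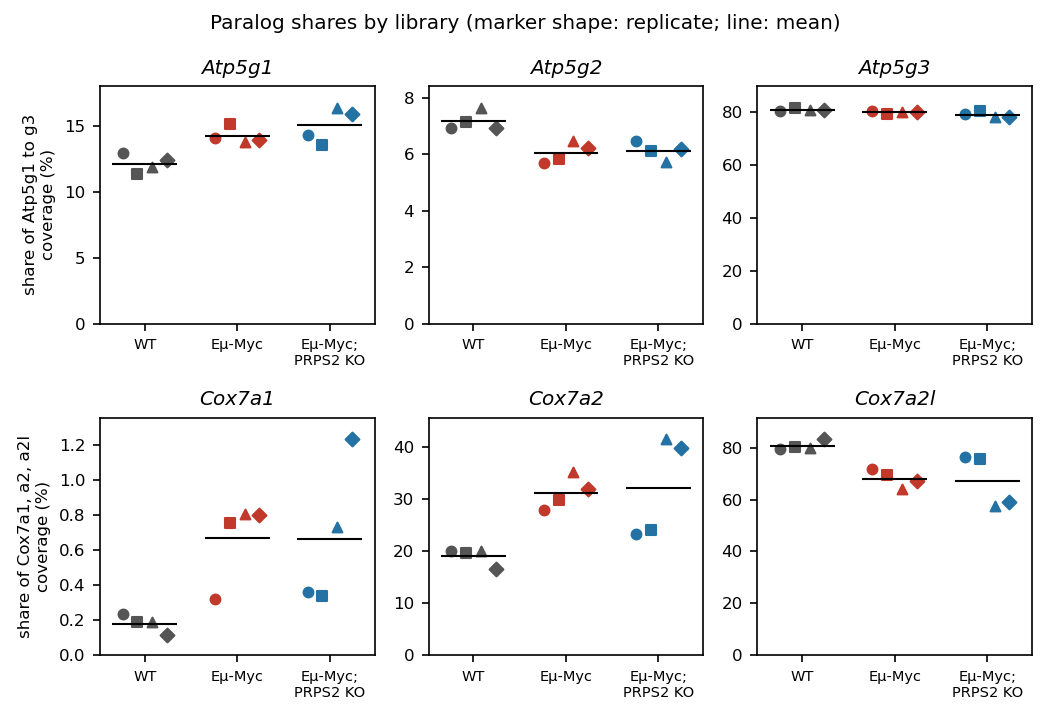
Share in percent of each of 6 paralogs in the summed scaled coverage of its family, by library, with a line at the group mean and axes from 0. The Cox7a2 share lies above 27 in all Eμ-Myc libraries and below 21 in all WT libraries, and Cox7a2l mirrors it, while Atp5g3 stays near 80 throughout.

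In the knockout group the summed level of the members was above WT in every library, with libraries far apart. The members summed to 18800, 20650, 34700 and 32870 in knockout libraries 1 to 4, all above the WT range of 15390 to 17270. In limma 19 of 45 tested members were called higher and 0 lower, where 31.4% of all 12692 genes were called, 19.3% as higher. At an unadjusted p under 0.05 there were 36, where 51.3% of all genes lay below that value. The median log2 fold change was 0.69 over the members and -0.09 over all genes. In 29 members every knockout library was above every WT library, as for 21.9% of all genes.

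The 19 were Sdhd in complex II, Cyc1, Uqcr10, Uqcr11 and Uqcrc2 in complex III, and Cycs. Complex IV gave Cox5a, Cox5b, Cox6a1, Cox7a1, Cox7b and Cox8a, and complex V gave Atp5a1, Atp5b, Atp5g1, Atp5g2, Atp5g3, Atp5k and Atp5o. Single libraries decided this count. Leaving out knockout library 1, 2, 3 or 4 gave 38, 28, 1 and 0 calls, where 54.6%, 34.4%, 6.58% and 5.8% of all genes were called. Leaving out WT library 1, 2, 3 or 4 gave 0, 0, 0 and 2 calls, where 8.61%, 5.18%, 6.07% and 12.4% of all genes were called. The count was 0 when knockout libraries 3 and 4 were averaged (6% of all genes), 32 with all 12 libraries in a single fit (48.5%) and 44 with library quality weights (84%), so calls over all genes moved the same way.

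The values show the split. Atp5b, the catalytic subunit, held 983, 1173, 1910 and 1886 in knockout libraries 1 to 4, a log2 change of 1.00 against WT (SE 0.22, limma adjusted p 0.0216). Atp5g1 held 292, 330.0, 671 and 594, a change of 1.27 (SE 0.28, limma adjusted p 0.0201). Cycs held 25.9, 30.3, 72.7 and 67.5, a change of 1.18 (SE 0.34, limma adjusted p 0.0379). All 4 knockout libraries of these genes were above the WT range, with libraries 1 and 2 nearer to WT.

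The same order held in the other complexes. Sdhd held 186, 216, 434 and 427, Sdhb 418, 452, 918 and 873, and Sdha 212, 219, 277 and 281. Cyc1 held 148, 180, 334 and 329, Uqcr11 193, 216, 519 and 491, Uqcrc1 234, 272, 447 and 449.5, and Uqcrfs1 182, 209.6, 365 and 345. In each of these genes libraries 3 and 4 were both above libraries 1 and 2. In complex IV, Cox5a held 408, 410, 711 and 658, and Cox4i1 1433, 1512, 2245 and 2172. Uqcrh, the hinge protein, held 547, 575, 792 and 749, with libraries 1 and 2 below the WT range. Sdha, Sdhb, Uqcrc1, Uqcrfs1 and Cox4i1 did not pass against WT, with limma adjusted p of 0.0682, 0.0637, 0.0542, 0.0569 and 0.0928. Cox7a1, the muscle form, held 3.24, 3.29, 9.01 and 15.0. In complex V, Atp5a1 held 689.8, 809.9, 1297 and 1277, Atp5g2 132, 149, 234 and 230.3, and Atp5g3 1611, 1954, 3184 and 2899.

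Against Eμ-Myc 0 of 45 tested members were called in the knockout group, where limma called 0.00799% of 12515 genes, which is Prps2 alone. At an unadjusted p under 0.05 there was 1 member, Cox6b2, where 0.967% of all genes lay below that value. In 0 members was every knockout library above every Eμ-Myc library, as in 0.911% of all genes. The members' median log2 fold change was -0.14, against -0.04 for all genes. Of the members' values 43 of 45 were negative, against 7311 of 12515 over all genes. The standard errors ran from 0.12 to 0.57, and changes of that order were not detectable. The median was 0.01 without knockout library 1 and -0.28 without knockout library 3. With library quality weights, which give less weight to libraries that deviate from their group, 29 members and 7228 of all genes (57.8%) were called, and the members' median was 0.26.

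The 3 members with the smallest p did not pass. Cox6b2 held 55.9, 43.8, 52.9 and 51.4 in knockout libraries 1 to 4, all below the lowest Eμ-Myc value of 60.1, a pattern seen in 0.679% of all genes. Its log2 fold change was -0.50 (SE 0.15, p 0.0092, limma adjusted p 1). With library quality weights Cox6b2 was called lower, at -0.40 (limma adjusted p 0.00398), and its adjusted p under the other alternatives was 0.815 to 1. Cox7a2l held 686, 735.5, 712 and 715, of which only library 2 reached the WT range, with a change of -0.19 (p 0.227, limma adjusted p 1). Without Eμ-Myc library 2 the change of Cox7a2l was -0.06, and without Eμ-Myc library 1 it was -0.28. Cox6a2 held 6.48, 6.17, 4.98 and 4.75, with a change of 0.34 (p 0.29, limma adjusted p 1). Without Eμ-Myc library 1 that change was 0.07, and over single omissions it reached 0.51.

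The knockout libraries lay on both sides of the Eμ-Myc range. Knockout library 1 was below the lowest Eμ-Myc library in 42 of 45 tested members (93.3%, against 33.8% of all genes tested) and library 2 in 41 (91.1%, against 29.7%). Library 3 was above the highest Eμ-Myc library in 27 (60%, against 33.0%) and library 4 in 18 (40%, against 31.6%). In 41 members libraries 1 and 2 were both below libraries 3 and 4 (91.1%, against 42.4%). Exceptions were Cox6a2 and Cox6b2 among the tissue paralogs, Cox7a2l and Atp5s. Cox7a2l was the member with the smallest spread in the knockout group, with an SD of 0.042 on the log2 scale. Atp5s held 20.8, 16.9, 17.1 and 19.9, with no such order.

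The spread of the members was wider in the Myc groups. The median SD between libraries on the log2 scale for WT, Eμ-Myc and knockout was 0.104, 0.273 and 0.465, against 0.212, 0.216 and 0.372 over all genes. The knockout SD exceeded the Eμ-Myc SD in 41 of 45 members (91.1%, against 74.9% of all genes).

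Other measures followed the same split of the knockout libraries. Myc held 1131, 1704, 2881 and 3121 in libraries 1 to 4, and Top2a 183, 263, 538.5 and 540.1. T-cell markers summed to 521, 549, 12.8 and 11.6, NK-cell markers to 488, 353, 18.4 and 16.4, and myeloid markers to 15300, 11000, 2790 and 1160. B-cell markers summed to 6670, 6770, 5920 and 6060. No T-cell marker was at 0. The part of these cells, of Myc and of division in the members' levels was not tested, and for these 4 libraries it cannot be told apart from other differences between them.

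**Figure D5:**
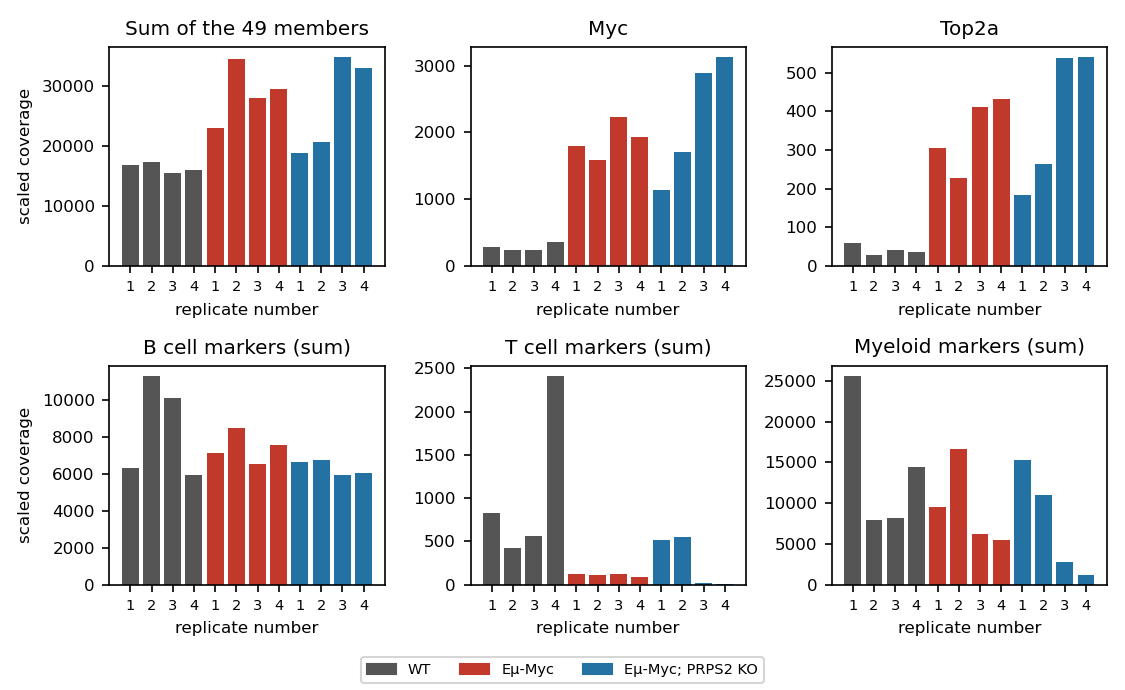
Scaled coverage per library, on axes from 0, of the sum of the 49 members, of Myc and Top2a, and of summed B-cell, T-cell and myeloid markers, with bars coloured by group. Knockout libraries 3 and 4 have the taller bars for the members, Myc and Top2a and the shorter bars for T-cell and myeloid markers.

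A second list, called the assembly list, held assembly factors, further subunits and regulators of these complexes. Of its 54 genes 53 were tested. In Eμ-Myc against WT 30 were called higher and 2 lower, Esrra and Ppargc1a, with a median of 0.44. This was 56.6% called higher, where 28.3% of all genes were called higher and 27.9% lower with a median of -0.07. By role, 1 of 4 assembly factors rose for complex II and 4 of 6 for complex III. Among assembly factors and further subunits of complex IV 14 of 25 rose. Among assembly factors, inhibitor and small subunits of complex V 4 of 5 rose. Hccs, which attaches heme to cytochrome c, rose as well. Among 12 genes of transcription and mitochondrial DNA 6 rose.

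The 3 with the largest increase were Cmc2, Twnk and Uqcc2. Cmc2, an assembly factor of complex IV, averaged 12.5 ± 1.45 in WT and 36.8 ± 7.42 in Eμ-Myc (SD over 4 libraries each), a log2 change of 1.50 (SE 0.16, limma adjusted p 8.61e-05). Twnk, the mitochondrial DNA helicase, averaged 26 ± 2.56 and 60.7 ± 5.89, a change of 1.21. Uqcc2, an assembly factor of complex III, averaged 202 ± 17.4 and 446 ± 108, a change of 1.11.

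Ppargc1a, which encodes the coactivator PGC-1α, averaged 2.04 ± 0.27 in WT and 0.921 ± 0.204 in Eμ-Myc. It passed the filter on low values through the WT libraries, where it is high, so its call supports nothing. Esrra, an orphan nuclear receptor, averaged 58.2 ± 5.26 and 37.9 ± 7.64, a change of -0.63 (SE 0.14, limma adjusted p 0.0051). Nrf1, whose motif was searched above, averaged 131 ± 7.73 and 163 ± 13, a rise of 0.32 (SE 0.09, limma adjusted p 0.0163), the smallest among the called genes that rose.

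In the knockout group against WT 12 of the 53 were called higher and 1, Esrra, lower, with a median of 0.43. At 22.6% the share called higher was near the 19.3% of all genes and is no result about the list. The count of calls ran from 1 to 30 as single libraries were left out, the highest without knockout library 1. Over the same omissions 5.18% to 54.6% of all genes were called, the highest share also without knockout library 1. Against Eμ-Myc 0 of 52 were called.

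As examples of position, on mm10 (GENCODE M21) Cycs is at chr6:50562563-50566538, Uqcr11 at chr10:80402997-80406830, Atp5g1 at chr11:96068852-96075670 and Sdhd at chr9:50596357-50603812, all on the minus strand, and Cox7a1 at chr7:30184144-30186078 on the plus strand. Some members share sequence with other genes, and whether the authors' coverage used strand is not given in the sources used here. Among the overlaps, exons of Atp5a1, Atp5j, Atp5f1, Cox4i1, Uqcrc2 and Cox6a2 overlap those of Haus1, Gabpa, Wdr77, Emc8, Pdzd9 and Itgad on the opposite strand in GENCODE M21. The symbol Atp5o names 2 entries there, at chr16:91925214-91931687 and chr16:91684398-91926982 on the minus strand. They share 243 exon bases, and the second also shares 287 with Donson. Which entry the deposited value covers is not given in the sources used here. Near copies of the coding sequence exist for 18 of 49 members, among them Atp5h and Cycs with 4 each and Cox7c and Uqcrb with 3 each. Values of these members are less certain to that extent.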

How the data were processed

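The members, lists and tests were chosen with earlier results of these data known. RNA was read from directional libraries, per the labels. The authors deposited 1 signal value per gene and library, the mean coverage, for 24982 symbols, of which 91.6% above 0 are not whole numbers. The submitters' processing notes name mm10, DESeq and R 4.3.3 without their role. The aligner and annotation are not given in the sources used here. No counts exist in these values, so no counting error or detection limit is given, and no count test was run.

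Libraries were scaled by unweighted trimmed means of log ratios (30% of ratios and 5% of means trimmed at each end) over 10992 genes at 1 or more in all 12 libraries. Testing needed a value of 1 or more in 4 or more of a comparison's 8 libraries and used limma 3.58.1 in R 4.3.3 (two-sided, trended prior, robust) on log2(scaled coverage + 0.5). Log2 fold changes are on that scale. A call is an adjusted p (Benjamini-Hochberg, all genes tested) under 0.05. The method was run on simulated data with genes drawn independently and the spread of the Eμ-Myc libraries in both groups. Unequal spread and libraries close in pairs, as in the knockout group, were not simulated. The simulation therefore does not bear on calls in that group. Shares were compared by exact permutation over 70 arrangements.

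Values in every library are given for chosen subunits (Sdha, Sdhb, Cyc1, Uqcrc1, Uqcrfs1, Cycs, Cox4i1, Cox5a, Atp5a1, Atp5b and the Atp5g genes), for the largest and smallest change in each complex, for detected tissue paralogs, and for the 3 members of smallest p between both Myc groups. Atp5l was named after its values were seen. From the assembly list the 3 highest and 3 lowest among called genes are named. Marker lists covered B, T, NK, myeloid, erythroid (sums 79.9 to 857), platelet (31.7 to 378), and muscle and testis genes. Alternatives were other scalings, filters, pseudocounts of 0.1 and 2, all 12 libraries in a single fit, a replicate block, quality weights and leaving out each library. Between the knockout group and Eμ-Myc, deviations from the group mean correlated for same-numbered libraries (r 0.692, 0.164, 0.25 and 0.651 over 10966 genes), a sign of pairing from the values alone, and 4 of 8 libraries correlated best with their own number. All values printed there come from the fit without the block, unless the block is named. The scaling over all genes above 0 and the averaging of libraries 3 and 4 were chosen after the data were seen. Positions and promoters came from GENCODE M21 and RefSeq with Python 3.11.15, pandas 2.3.3 and scipy 1.17.1.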

Additional observations from a re-analysis of the deposited data

Results flagged for a closer look

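Each member was examined in each group of 4 libraries for a library far from the other 3, by Dixon's ratio of gap to range above its 95% critical value. Of 135 sets 4 met it, where chance gives about 1 in 20. Eμ-Myc library 1 accounted for 3. Cox6c, a small subunit of complex IV, had a scaled coverage of 483 there, against 708 to 744 in the other Eμ-Myc libraries. Cycs had 35.5, against 49.3 to 50. Sdhd had 257, against 323 to 335. The remaining value was Cycs in WT library 3, at 17.3 against 19.8 to 20.3. Without Eμ-Myc library 1, 40 members were called higher against WT, where 54% of all genes were called as higher or lower.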

How the results depend on the processing

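In Eμ-Myc against WT 37 to 42 members were called under all alternatives, with 38 to 40 (median log2 fold change 0.77 to 0.97) as single libraries were left out. The share of all genes called there ran from 40.9% with no filter to 71.2% with library quality weights. Over single omissions that share was 46.9% to 56.2%. Counts against WT in the knockout group moved with the fit: 32 with all 12 libraries, 44 with library quality weights (median 1.06), 4 with the replicate block and 0 with the closest libraries averaged, where 48.5%, 84%, 15% and 6% of all genes were called, the last being an alternative chosen after the data were seen. Leaving out single libraries gave 0 to 38 (median 0.54 to 0.86), where 5.18% to 54.6% of all genes were called. For the assembly list these were 26, 42, 5, 1 and 1 to 30, and in Eμ-Myc against WT 25 to 33. Against Eμ-Myc the quality weights called 29 members and 33 list genes, where 57.8% of all genes were called. Single omissions called 0 members and 0 list genes (members' median -0.28 to 0.01). The causes were not tested.

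Only between the knockout group and Eμ-Myc did same-numbered libraries correlate above 0.1 for every number. Against WT this was not met: the correlations ran from -0.382 to 0.394 in the knockout group and from -0.021 to 0.301 in Eμ-Myc, and 2 and 4 of 8 libraries correlated best with their own number. The replicate block gave 39 members in Eμ-Myc against WT, 4 in knockout against WT and 0 in knockout against Eμ-Myc. Of all genes 57.5%, 15% and 0.00799% were called with the block, and 56.2%, 31.4% and 0.00799% without it. In knockout against WT the block thus took the member calls from 19 to 4, and those of the assembly list from 13 to 5. It changed no count of member or list calls in the other 2 comparisons by more than 1.5 times.

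Signs reversed for small changes. Cox7a2l in Eμ-Myc against WT became -0.012 with quality weights and -0.059 with total coverage scaling, and ran from -0.073 to 0.141 over single omissions. The same range was -0.028 to 0.417 for Cox6a2 there, and -0.015 to 0.528 for Cox6b2 in the knockout group against WT. Differences in family share, in percentage points, ran over 0 with single omissions: -0.052 to 0.211 for Atp5g2, -0.194 to 0.105 for Cox7a1, -2.17 to 3.96 for Cox7a2 and -4.06 to 2.19 for Cox7a2l against Eμ-Myc, -0.234 to 0.0193 for Cox6a2 in the knockout group against WT, and -1.25 to 0.474 for Cox6b2 in Eμ-Myc against WT.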
